A study of Mus musculus with 12 samples.

Results

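Nxf2, Nxf3, Mageb4, Pramel3, Tro and Usp26 are 6 genes of the mouse X chromosome, grouped here as genes of the cancer-testis kind. Some of their families also hold general or broadly expressed genes, such as Nxf1 and Maged1. Whether each of the 6 is limited to germ cells was not examined here. Messenger RNA of the 6 genes was followed in primordial germ cells (PGCs) with and without conditional deletion of Ezh2. The 6 genes were chosen by name because they were higher in conditional knockout (CKO) cells, out of 37991 gene identifiers in the table. Their differences between CKO and control (Ctrl) cells therefore chose them and are given as a description with no test.

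The 12 libraries each hold the PGCs of 1 embryo at E13.5 (embryonic day) on a C57BL/6 background. Among females 2 embryos are CKO and 3 are Ctrl, and among males 3 are CKO and 4 are Ctrl. CKO stands for the conditional knockout of Ezh2, and the labels state neither the Cre driver, nor the exons removed, nor which alleles the Ctrl embryos carry. The embryos were genotyped by PCR and their cells were sorted separately, so that the embryo is the replicate. Total counts ran from 26180685 to 35299206 per library.

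Cancer-testis genes are transcribed in germ cells and are silent in most other tissues, and some return in tumours, where their products were first noticed as antigens. Many lie on the X chromosome in families that have multiplied by duplication. Ezh2 is the catalytic subunit of the Polycomb complex that writes H3K27me3, a histone mark of silent genes. At this age female germ cells enter meiosis and have reactivated the silent X chromosome, while male germ cells, with a single X, stop dividing.

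The 6 genes have different roles. Nxf2 and Nxf3 are relatives of Nxf1, the general receptor that carries messenger RNA out of the nucleus. Mageb4 and Tro belong to the MAGE family, whose shared domain binds ubiquitin ligases, and Tro encodes trophinin, known in human as an adhesion molecule of the embryo and the uterus. Pramel3 is a relative of Prame, which encodes a leucine-rich repeat protein. Usp26 encodes a ubiquitin-specific protease of the testis.

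The letters just before the gene starts are shown because the 6 genes lie in families with close copies, and a short motif is repeated before 1 of them. RefSeq windows of the 250 bases before the start, on GRCm38.p6, were matched for 4 of the 6 genes and for AV320801, a near-identical copy of Pramel3. Nxf2 has a second window, which is not shown, and Nxf3 and Tro have none in the table used. The windows are X:134964755-134965004 on the minus strand for Nxf2, X:86256220-86256469 on the minus strand for Mageb4, X:135302066-135302315 on the plus strand for Pramel3, X:135494338-135494587 on the plus strand for AV320801 and X:51801234-51801483 on the minus strand for Usp26. Each is written 5′ to 3′ along the gene, and capitals mark CACGTG, the E-box letters bound by MYC and MAX family factors.
Nxf2: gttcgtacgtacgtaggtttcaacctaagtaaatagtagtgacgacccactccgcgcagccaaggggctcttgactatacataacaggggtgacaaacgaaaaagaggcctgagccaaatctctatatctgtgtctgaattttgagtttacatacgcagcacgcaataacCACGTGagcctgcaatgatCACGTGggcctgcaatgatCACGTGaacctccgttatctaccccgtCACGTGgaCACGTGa
Mageb4: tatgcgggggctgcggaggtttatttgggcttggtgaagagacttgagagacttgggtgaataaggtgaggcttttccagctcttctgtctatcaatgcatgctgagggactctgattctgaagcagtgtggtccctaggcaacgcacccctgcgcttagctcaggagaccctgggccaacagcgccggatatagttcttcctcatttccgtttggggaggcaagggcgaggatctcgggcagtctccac
Pramel3: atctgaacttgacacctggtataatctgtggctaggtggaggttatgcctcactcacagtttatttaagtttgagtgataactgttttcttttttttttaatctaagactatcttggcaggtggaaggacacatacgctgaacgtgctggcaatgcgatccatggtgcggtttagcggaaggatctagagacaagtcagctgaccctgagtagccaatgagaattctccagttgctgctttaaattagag
AV320801: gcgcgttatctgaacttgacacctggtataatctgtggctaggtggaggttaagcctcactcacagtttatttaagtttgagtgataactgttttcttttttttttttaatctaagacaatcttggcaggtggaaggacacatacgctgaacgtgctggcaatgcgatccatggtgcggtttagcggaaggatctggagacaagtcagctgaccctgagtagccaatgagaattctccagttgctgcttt
Usp26: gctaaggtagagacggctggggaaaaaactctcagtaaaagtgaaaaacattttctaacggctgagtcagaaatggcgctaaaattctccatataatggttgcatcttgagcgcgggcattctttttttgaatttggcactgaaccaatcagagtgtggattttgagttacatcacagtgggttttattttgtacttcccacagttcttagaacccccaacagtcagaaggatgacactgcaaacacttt

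The Nxf2 window held 5 copies of CACGTG, at 80, 61, 42, 15 and 7 bases before the start, and they do not overlap each other. CACGTG reads the same on both strands. Of 32851 windows of this length, 6.02% held at least 1 copy and 5 windows, or 0.0152%, held at least 5. The motif is shown because it is repeated in the Nxf2 window, so these shares are a description and no test. The second Nxf2 window and the windows of Mageb4, Pramel3 and Usp26 held no CACGTG. The letters GGCGGGA, a form of the E2F site, were searched on both strands and stood in none of these windows, against 9.75% of all windows. The Nxf2 window held 16 CG pairs, against a median of 6 over all windows, and the windows of Mageb4, Pramel3 and Usp26 held 9, 5 and 5. Pramel3 and AV320801 shared a run of 76 letters without a difference, and Pramel3 and the window of Gm15023, another copy, which is not shown, shared a run of 140 letters, whereas the longest run shared by Nxf2 and Pramel3 was 8 letters.

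Some of the counts cannot be assigned to a single gene. Pramel3 had 4 copies at 95% identity or more over 50% or more of its longest transcript. They are Gm15023, AV320801, Gm5128 and Gm7903, and its transcript matched that of Gm15023 at 98.9%. Mageb4 had 1 such copy, the neighbouring pseudogene Mageb10-ps, at 97.6% over 1403 bases, and the 2 gene models overlap on the same strand. No such copy was found for Nxf2, Nxf3, Tro or Usp26. The longest match of Nxf2 was Nxf7 at 73.7% over 649 bases. The treatment of reads that fit several places is not given in the sources used here, so the values of Pramel3 and Mageb4 are uncertain as those of single genes.

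Ezh2 itself was lower in CKO cells and not absent. It averaged 95.6 ± 15.7 CPM (read counts scaled to library size) in female CKO and 154 ± 10.9 CPM in female Ctrl cells (SD, n = 2 and 3; log2 fold change -0.68, edgeR adjusted p = 0.02). In males it averaged 84.4 ± 1.79 CPM in CKO and 122 ± 19.9 CPM in Ctrl cells (SD, n = 3 and 4; log2 fold change -0.53, edgeR adjusted p = 0.0527). The groups did not overlap in either sex, although male Ctrl 1, at 96.6 CPM, was closest to the male CKO libraries. The female difference was no longer called without female CKO 1 or without female Ctrl 3, with adjusted p-values up to 0.165. Reads outside the deleted part of the gene may be counted too, so the remaining counts do not measure intact Ezh2.

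Markers of germ cells, Dazl being the most abundant at 2258 to 3217 CPM, summed to 6199 to 6865 CPM in the 12 libraries. All 10 were detected, and those of other cell types were low. Sertoli cell markers summed to 19.1 and 20.5 CPM in female CKO, 14.3 to 19.3 in female Ctrl, 23.2 to 55.6 in male CKO and 25.8 to 71.9 in male Ctrl libraries, the highest being male Ctrl 1. Red blood cell markers summed to 16.4 CPM in female CKO 1 and 20.4 in male CKO 1, and to between 0.0921 and 2.06 in the other libraries. Granulosa cell markers summed to 21.2 and 19.9 CPM in female CKO, 16.2 to 28.6 in female Ctrl, 5.04 to 5.68 in male CKO and 5.61 to 13.6 in male Ctrl libraries. Interstitial cell markers summed to 5.68 and 12.7 CPM in female CKO, 3.69 to 4.7 in female Ctrl, 3.61 to 6.09 in male CKO and 3.09 to 7.59 in male Ctrl libraries, and macrophage markers to between 0 and 4 in all 12. Endothelial markers summed to 134 and 163 CPM in female CKO, 241 to 303 in female Ctrl, 235 to 258 in male CKO and 163 to 333 in male Ctrl libraries, of which Pecam1, a gene that germ cells also express, made up 129 to 324. Interstitial markers were thus above and endothelial markers below all female Ctrl libraries in both female CKO libraries, and their part in the differences between female CKO and Ctrl cells described here was not tested. In bulk samples of this kind fewer cells that express a gene and less RNA per cell cannot be told apart.

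All 6 genes passed the filter on low counts, and all 6 also pass it on the Ctrl libraries alone. In females both CKO libraries lay above every Ctrl library for all 6 genes, as they did for 22.2% of the 16708 genes tested (7.17% of all genes passed the edgeR test of female CKO against Ctrl). In males all 3 CKO libraries lay above every Ctrl library for Nxf3, Mageb4, Pramel3 and Usp26 and overlapped the Ctrl libraries for Nxf2 and Tro. That separation held for 8.01% of all tested genes in males, and 1.7% of all genes passed the edgeR test of male CKO against Ctrl. Since these differences chose the genes, the counts describe the choice.

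Nxf2, the germ line relative of the export receptor, had a larger log2 fold change in females than the other 5 genes in the reported fit. Pramel3 was next, at 5.31 (SE 0.83). With single libraries left out the 2 genes overlapped, at 4.98 to 6.51 for Nxf2 and 4.92 to 6.55 for Pramel3. Nxf2 stood at 94.2 and 32.7 CPM in female CKO libraries, against 1.04, 1.03 and 1.03 CPM in female Ctrl libraries. In males it stood at 2.03, 11.4 and 9.98 CPM in CKO libraries, against 5.64, 0.825, 0.761 and 4.13 CPM in Ctrl libraries. The female Ctrl libraries were nearly equal, female CKO 1 was far above female CKO 2, and among males CKO 1 lay below 2 Ctrl libraries. The log2 fold change was 5.93 (SE 0.95) in females and 1.44 (SE 0.71) in males. In females the counts behind it were 3219 and 1086 in CKO and 30 to 34 in Ctrl libraries. Of all 6 genes Nxf2 was also the least even within female CKO, and red blood cell markers were higher in the same library, female CKO 1, at 16.4 CPM in sum against 1.14 CPM in female CKO 2. In males the highest sum of these markers, 20.4 CPM, was in male CKO 1, the CKO library with the lowest Nxf2 level, 2.03 CPM. Their part in the result was not tested. Without female CKO 1 the female log2 fold change of Nxf2 was 4.98, and the male one was 2.04 without male Ctrl 1 and 2.10 with the replicate number as a block.

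Nxf3, the other export factor relative, was low in all Ctrl libraries. It stood at 8.37 and 4.12 CPM in female CKO, against 0.43, 0.594 and 0.583 CPM in female Ctrl libraries. Male libraries had 2.94, 4.2 and 8.7 CPM in CKO, against 0.818, 0.949, 0.662 and 1.32 CPM in Ctrl libraries. The lowest CKO library of either sex was above the highest Ctrl library of both. CKO averages were close in the sexes, 6.25 ± 3 CPM in females and 5.28 ± 3.03 CPM in males (SD, n = 2 and 3). The log2 fold changes were 3.54 (SE 0.49) in females, or 2.94 without female CKO 1, and 2.49 (SE 0.40) in males.

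Mageb4, a MAGE gene, was already well detected in Ctrl cells. It stood at 164 and 112 CPM in female CKO, against 33.6, 39.1 and 38.1 CPM in female Ctrl libraries. The male libraries had 60, 89.7 and 77.3 CPM in CKO, against 29.5, 44.3, 28.7 and 23.8 CPM in Ctrl libraries. Ctrl libraries of the sexes overlapped, and every female CKO library was above every male CKO library. The log2 fold changes were 1.90 (SE 0.24) in females and 1.26 (SE 0.20) in males. Summed with Mageb10-ps, so that reads shared by the copies stay together, the level was 165 ± 41.4 CPM in female CKO and 42.9 ± 3.33 CPM in female Ctrl cells. The same sum was 89.1 ± 17.2 CPM in male CKO and 36.4 ± 9.93 CPM in male Ctrl cells. The log2 ratio of these means was 1.94 in females and 1.29 in males, close to the log2 fold changes of Mageb4 alone. Mageb4 made up most of the sum, at 138 CPM in female CKO and 36.9 CPM in female Ctrl cells. The closeness follows from that and is no test of shared reads.

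Tro, the trophinin gene, shared its pattern in males with Nxf2. It stood at 36.5 and 16.9 CPM in female CKO, against 3.13, 2.56 and 2.47 CPM in female Ctrl libraries. In males it stood at 11.3, 12.7 and 10.3 CPM in CKO, against 11.4, 2.81, 3.51 and 6.51 CPM in Ctrl libraries. Male Ctrl 1 reached the level of the CKO males and male Ctrl 4 was second, the same 2 libraries that were highest in Nxf2 among male Ctrl. The log2 fold changes were 3.29 (SE 0.49) in females and 0.91 (SE 0.39) in males. Male Ctrl 1 had the highest sum of Sertoli cell markers, at 71.9 CPM, whereas male Ctrl 4, at 26.1, was level with male Ctrl 2 and 3 at 25.8 each, and the part of these cells in the Tro level was not tested. Without male Ctrl 1 the male log2 fold change of Tro was 1.42, and without female CKO 1 the female one was 2.64.

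Pramel3, the PRAME relative, was near the detection limit in several Ctrl libraries. It stood at 16.6 and 15.8 CPM in female CKO, against 0.154, 0.188 and 0.892 CPM in female Ctrl libraries. Among males it was at 1.96, 5.31 and 5.47 CPM in CKO, against 0.788, 0.454, 0.0662 and 1.32 CPM in Ctrl libraries. The female CKO libraries were nearly equal, and the lowest Ctrl value, that of male Ctrl 3, rested on 2 counts. The log2 fold changes were 5.31 (SE 0.83) in females and 2.69 (SE 0.66) in males, and the female value was 6.55 without female Ctrl 3. The copies Gm5128 and Gm7903 were not matched among the counted genes and could not be summed. Summed over Pramel3, Gm15023 and AV320801 the level was 28.8 ± 4.16 CPM in female CKO and 1.64 ± 0.637 CPM in female Ctrl cells. That sum was 10.4 ± 4.05 CPM in male CKO and 2.12 ± 0.802 CPM in male Ctrl cells. The log2 ratio of the means of this sum was 4.14 in females and 2.29 in males.

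Usp26, the ubiquitin protease gene, was nearly level within each group. It stood at 19.3 and 19.6 CPM in female CKO, against 7.8, 6.6 and 8.78 CPM in female Ctrl libraries. In males it stood at 20, 18.5 and 21.5 CPM in CKO, against 12.9, 13, 12.3 and 10.6 CPM in Ctrl libraries. The CKO libraries of both sexes overlapped, and every male Ctrl library was above every female Ctrl library. The log2 fold changes were 1.33 (SE 0.17) in females and 0.72 (SE 0.15) in males, the smallest of the 6 in either sex.

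**Figure D1:**
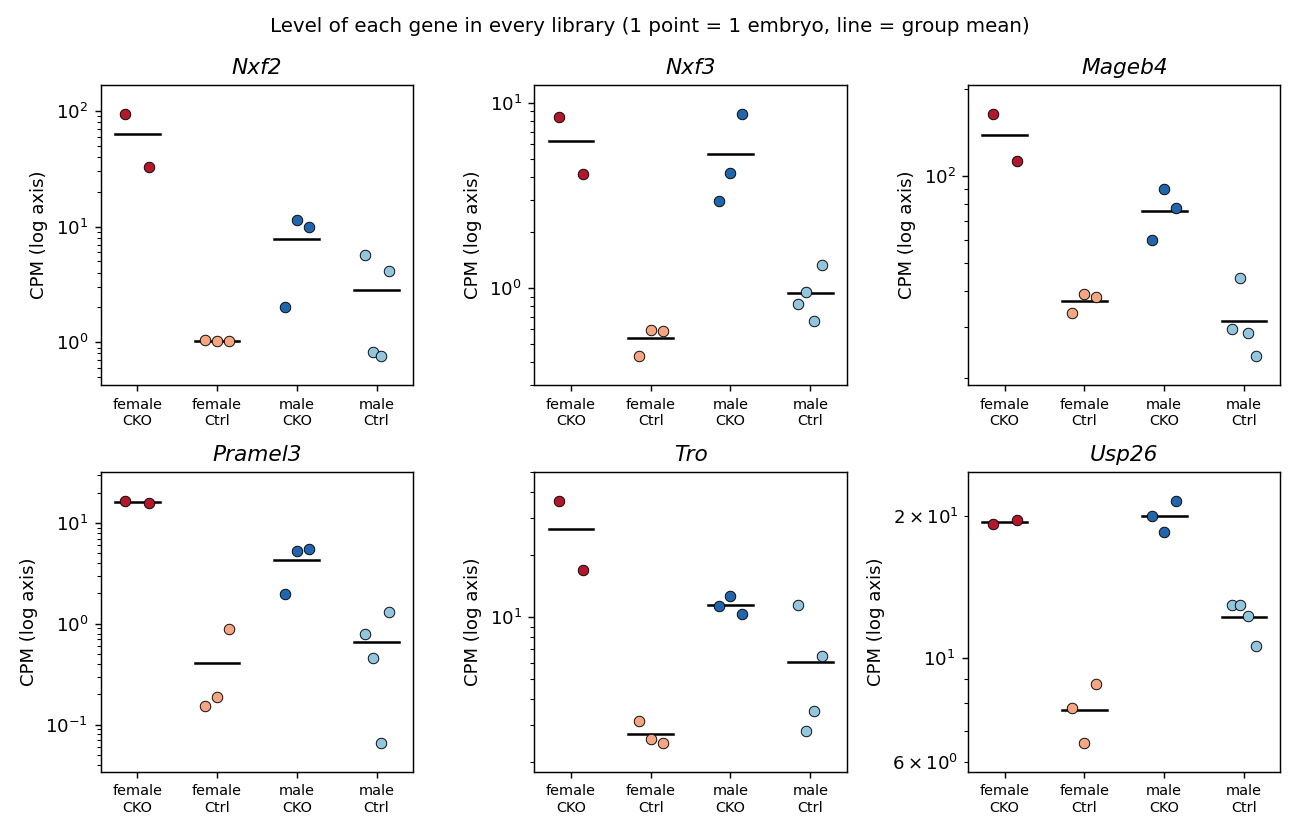
Level of each of the 6 genes in every library in CPM on a log axis, with 1 point per embryo and a line at the group mean, for females (2 CKO left of 3 Ctrl) and males (3 CKO left of 4 Ctrl). Female CKO points lie above all female Ctrl points in each panel, and in males the groups overlap for Nxf2 and Tro.

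The female log2 fold change was above the male one for each of the 6, with differences from 0.61 for Usp26 (SE 0.23) and 0.64 for Mageb4 (SE 0.31) to 4.49 for Nxf2 (SE 1.15). Nxf3 differed by 1.04 (SE 0.63), Tro by 2.38 (SE 0.62) and Pramel3 by 2.63 (SE 1.04). These differences come from the comparisons that chose the genes and were not tested. By mean CPM, Nxf2, Nxf3, Pramel3 and Tro were highest in female CKO, then in male CKO, male Ctrl and female Ctrl cells. Mageb4 had the Ctrl groups in the other order, and Usp26 had male CKO just above female CKO cells. Groups next to each other in these orders overlapped between male CKO and male Ctrl for Nxf2 and Tro, between the CKO groups for Nxf3 and Usp26, and between the Ctrl groups for Nxf2, Mageb4, Pramel3 and Tro.

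Per base of transcript, in RPKM (CPM divided by exon length in kilobases), the genes kept part of their order in all groups. Mageb4 was first everywhere, at 55.3 ± 14.6 RPKM in female CKO, 14.8 ± 1.17 in female Ctrl, 30.3 ± 6 in male CKO and 12.7 ± 3.55 in male Ctrl cells. In female CKO cells Nxf2 was second, at 24.7 ± 16.9 RPKM, ahead of Usp26 at 4.7 ± 0.0508, Pramel3 at 4.38 ± 0.159, Tro at 3.66 ± 1.89 and Nxf3 at 2.05 ± 0.986. Tro overlapped Usp26, Pramel3 and Nxf3 in these libraries. In the other 3 groups Usp26 was second, at 1.87 ± 0.265 RPKM in female Ctrl, 4.84 ± 0.369 in male CKO and 2.95 ± 0.266 in male Ctrl cells. Nxf2, Nxf3, Tro and Pramel3 followed, from 0.111 to 0.403 RPKM in female Ctrl, from 1.15 to 3.04 in male CKO and from 0.178 to 1.1 in male Ctrl cells. Among these 4, levels of neighbouring genes in the order overlapped in male CKO and in male Ctrl libraries. The lengths used are those of all exons of the gene in GENCODE M21.

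The comparison of female with male Ctrl cells did not itself choose the genes and was tested. It shares its Ctrl libraries with the CKO comparisons that chose them. Genes chosen for a rise over Ctrl tend to have low Ctrl values, so these tests are not independent of the choice. Usp26 was lower in female Ctrl, at 7.73 ± 1.09 CPM, than in male Ctrl cells, at 12.2 ± 1.1 CPM (SD, n = 3 and 4; edgeR adjusted p = 0.00352, with a log2 fold change of -0.66 and an SE of 0.15), and it stayed called in all 19 alternative fits. Tro was lower in female Ctrl, at 2.72 ± 0.358 CPM, than in male Ctrl cells, at 6.06 ± 3.92 CPM (SD, n = 3 and 4; log2 fold change -1.16, SE 0.42, edgeR adjusted p = 0.0421). That difference lost its call in 8 of the 12 fits without 1 library, namely without any female Ctrl, without any male CKO and without male Ctrl 1 or 4 (adjusted p from 0.0549 to 0.135). Its log2 fold change was -0.66 without male Ctrl 1, and its call was also lost with the library size alone, with no filter on low counts, with only the groups compared and with the replicate number as a block. The other 4 genes did not pass the test. Their log2 fold changes were -1.47 (SE 0.81, edgeR adjusted p = 0.176) for Nxf2, -0.80 (SE 0.44, adjusted p = 0.172) for Nxf3, 0.23 (SE 0.20, adjusted p = 0.403) for Mageb4 and -0.69 (SE 0.75, adjusted p = 0.5) for Pramel3. The value of Pramel3 was -1.91 without female Ctrl 3 and lay between -1.91 and -0.13 over the libraries left out in turn.

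Thus 2 of the 6 were called lower in female Ctrl cells and 0 higher in edgeR, where 39.5% of all tested genes were called, 19.4% lower and 20.1% higher. At an unadjusted p under 0.05, and in DESeq2 after adjustment, the counts were 2 lower and 0 higher. The shares of all genes called in these 2 ways are not given here, so these counts add no support. Among the 671 tested genes of the X chromosome, female Ctrl cells had 243 higher and 48 lower, and the median log2 fold change was 0.41, against 0.0016 over all genes. The median of the 6 was -0.75. Sertoli cell markers summed to 14.3 to 19.3 CPM in female Ctrl and 25.8 to 71.9 CPM in male Ctrl libraries beside these differences, and their part was not tested.

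Related genes that were not among the 6 were counted from lists of export factors, MAGE genes, PRAME genes, relatives of Usp26, X-linked testis genes and autosomal cancer-testis genes. Of 147 entries 136 were found in the table and 95 were tested. In female CKO cells 9 of the 95 were higher and 3 lower than in female Ctrl cells, at an edgeR adjusted p under 0.05, against 3.01% of all tested genes higher and 4.16% lower. The median log2 fold change of the 95 was 0.33, against -0.0036 over all genes. In male CKO cells 5 of the 95 were higher and 0 lower than in male Ctrl cells, against 1.2% and 0.497% of all genes, with a median log2 fold change of 0.06, against -0.018 over all genes. Of the 95, 87 pass the filter on the Ctrl libraries alone, a count made after seeing the data, and 8 entered through the CKO libraries. Over the 87, 6 were higher and 3 lower in females and 4 were higher and 0 lower in males. The median log2 fold change of the 87 was 0.19 in females and 0.035 in males. Here and below, shares of all genes are those of the 16708 tested genes. No share is given for all genes that pass the filter on the Ctrl libraries alone. At an unadjusted p under 0.05 the counts over the 95 were 34 higher and 13 lower in females and 10 higher and 11 lower in males. In DESeq2 they were 17 higher and 5 lower in females and 7 higher and 4 lower in males. The shares of all genes called in these ways are not given here. DESeq2 called 22 of the 95 in females and 11 in males in all, and the female count was 26 with only the groups compared and 3 without female CKO 1. The male count was 2 without male CKO 2, 3 without male CKO 3 or without male Ctrl 3, and 8 without male Ctrl 2. The female count fell to 5 without female Ctrl 3, 6 without female Ctrl 1 and 7 without female Ctrl 2, and stood at 20 without male Ctrl 1 and 21 without male Ctrl 2.

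Of the 9 genes higher in females 5 were on the MAGE list, out of 19 tested, with 0 lower there (0 at an unadjusted p under 0.05 and in DESeq2) and a list median log2 fold change of 1.51. Of all tested genes 3.01% were called higher in females and 1.2% in males. Magea6 and Mageb7-ps do not pass the filter on the Ctrl libraries alone, and over the 16 MAGE genes that do, 3 were higher in females, with a median of 1.33, and 1 in males. Magea6 averaged 1.42 ± 0.854 CPM in female CKO and 0.0652 ± 0.036 CPM in female Ctrl cells (SD, n = 2 and 3; log2 fold change 4.37, edgeR adjusted p = 0.00766). Magea10 averaged 10.6 ± 2.12 CPM in female CKO and 2.54 ± 0.397 CPM in female Ctrl cells (SD, n = 2 and 3; log2 fold change 2.07, edgeR adjusted p = 0.0376). The others were the pseudogenes Mageb10-ps (log2 fold change 2.14), Mageb7-ps (3.31) and Mageb6-ps (2.23), which are neighbours of Mageb4. In males 2 of the 19 were higher, Mageb10-ps (1.49, edgeR adjusted p = 0.00545) and Mageb7-ps (2.11, adjusted p = 0.0483), and the median log2 fold change was 0.22. Mageb10-ps, the close copy of Mageb4, stayed called in both sexes in all 19 alternative fits. Magea6 and Mageb7-ps lost the female call without female CKO 1 (edgeR adjusted p = 0.0618 and 0.0598), and Magea10 and Mageb6-ps lost it without each of the 5 female libraries in turn (adjusted p up to 0.175 and 0.349). Magea10 also lost it without male Ctrl 3, and Mageb6-ps without CKO male 2 or 3, without Ctrl male 3 or 4 and with the block. The male call of Mageb7-ps was lost in 12 of 19 alternative fits, among them those without each male library in turn (adjusted p up to 0.152). Maged1, a broadly expressed MAGE gene, matched Tro over a longer stretch than any other transcript, at 77.1% over 756 bases, while Maged2 matched at 81.7% over 714 bases. Maged1 averaged 1032 ± 30.4 CPM in female CKO and 1172 ± 273 CPM in female Ctrl cells, and did not pass the test in either sex.

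Among the export factors no gene was higher in CKO cells of either sex at an edgeR adjusted p under 0.05. At an unadjusted p under 0.05, 4 of 19 were higher and 4 lower in females, and 1 higher and 4 lower in males. DESeq2 called 2 higher and 3 lower in females, and 1 higher and 2 lower in males. Nxf1, the general receptor and paralog of Nxf2 and Nxf3, averaged 158 ± 8.62 CPM in female CKO and 179 ± 13.2 CPM in female Ctrl cells (log2 fold change -0.18, edgeR adjusted p = 0.282). In males it averaged 240 ± 14 CPM in CKO and 251 ± 8.96 CPM in Ctrl cells (log2 fold change -0.06, edgeR adjusted p = 0.764). Nxf7, the longest match of Nxf2, had 1 count in female CKO 1 and 0 in the other 11 libraries. The 2 genes lower in female CKO cells were Xpo1, a nuclear export receptor for proteins and some RNAs (log2 fold change -0.51, edgeR adjusted p = 0.0162), and Nup98, a nuclear pore protein (-0.54, adjusted p = 0.0319). The Xpo1 call was lost without either female CKO library and without female Ctrl 3, and that of Nup98 without either female CKO library, without female Ctrl 1 or 3, by library size alone and with the block.

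Prame, the name gene of the PRAME family, was silent in all Ctrl libraries. It had 70 and 28 counts in female CKO, against 0 in each female Ctrl library, and 0, 14 and 6 counts in male CKO, against 0 in each male Ctrl library. Set against a floor of 3 counts for the whole Ctrl group (0.032 CPM in females, 0.0261 CPM in males), the mean was at least 45.1-fold higher in female CKO and at least 8.85-fold higher in male CKO cells. It passed the test in females (edgeR adjusted p = 0.0276) and not in males (adjusted p = 0.143). That call was lost without each of the 5 female libraries in turn (adjusted p up to 0.124), in DESeq2 and with the block. Of the PRAME list, 1 of 4 tested genes was called higher in females, against 3.01% of all tested genes. Prame, that gene, does not pass the filter on the Ctrl libraries alone. Male CKO 1, which had no Prame count, was also the lowest CKO male in Nxf2, Nxf3, Mageb4 and Pramel3.

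None of the 6 relatives of Usp26 was called higher or lower in either sex in edgeR. At an unadjusted p under 0.05 and in DESeq2 there were 0 higher in each sex, while 2 were lower at the unadjusted p and 1 in DESeq2 in each. Usp29, its close relative, averaged 10.2 ± 1.37 CPM in female CKO and 16 ± 2.64 CPM in female Ctrl cells (log2 fold change -0.65, edgeR adjusted p = 0.0728). In males Usp29 averaged 30.3 ± 5.76 CPM in CKO and 45.4 ± 6.44 CPM in Ctrl cells (log2 fold change -0.58, edgeR adjusted p = 0.0931).

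Of 15 tested X-linked testis genes 2 were higher in females and 1 in males and 0 were lower, against 3.01% of all genes higher in females and 1.2% in males, and the medians were 1.27 and 0.50 on the log2 scale. The counts at an unadjusted p under 0.05 were 8 higher and 0 lower in females and 2 higher and 1 lower in males, and DESeq2 called 4 and 2 higher and 0 lower. Over the 12 that pass the filter on the Ctrl libraries alone the medians were 1.03 and 0.42. Tktl1, a transketolase-like gene, stood at 54.5 and 31 CPM in female CKO, against 8.85, 13 and 9.47 CPM in female Ctrl libraries (log2 fold change 2.03, edgeR adjusted p = 0.00214). In males it averaged 10.8 ± 1.92 CPM in CKO and 4.54 ± 0.662 CPM in Ctrl cells (SD, n = 3 and 4; log2 fold change 1.25, edgeR adjusted p = 0.0178). Its female call held in all 19 alternative fits, and its male call failed without the second or the third male CKO library, without male Ctrl 3 and with the block (adjusted p up to 0.0902). Fthl17c, a ferritin-like gene of a family of copies, was higher in female CKO cells (log2 fold change 2.26, edgeR adjusted p = 0.0273) and lost the call without female CKO 1, without each female Ctrl library in turn and with the block.

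Of 32 tested autosomal cancer-testis genes females had 1 higher and 1 lower and males 2 higher and 0 lower, and the medians were 0.07 and -0.04 on the log2 scale. Of all genes 3.01% were higher and 4.16% lower in females, and 1.2% higher and 0.497% lower in males. The list had, at an unadjusted p under 0.05, 8 higher and 6 lower in females and 3 higher and 3 lower in males, and DESeq2 called 5 higher and 1 lower in females and 2 higher and 1 lower in males. Ddx43, an RNA helicase gene of the germ line, averaged 42.5 ± 6.43 CPM in female CKO and 19.5 ± 3.45 CPM in female Ctrl cells (SD, n = 2 and 3; log2 fold change 1.13, edgeR adjusted p = 0.00341). In males it averaged 36 ± 2.49 CPM in CKO and 18.8 ± 1.19 CPM in Ctrl cells (SD, n = 3 and 4; log2 fold change 0.93, edgeR adjusted p = 0.00545), and both calls held in all 19 alternative fits. Brdt, which encodes a testis bromodomain protein, was higher in males, at 58.5 ± 14.3 CPM in CKO and 26.6 ± 5.09 CPM in Ctrl cells (SD, n = 3 and 4; log2 fold change 1.14, edgeR adjusted p = 0.0102), and narrowly lost the call without male CKO 2 (adjusted p = 0.0513). Atad2, an ATPase with a bromodomain that dividing cells use, was lower in females (log2 fold change -0.43, edgeR adjusted p = 0.0349), and lost the call without each of the 5 female libraries in turn, without male CKO 1, by library size alone and with the block.

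The difference between the female and the male effect was tested for the 95 related genes and 0 passed in edgeR, as over all 16708 genes (0%). The smallest adjusted p among the 95 was 0.397. At an unadjusted p under 0.05 there were 11 of the 95 and 1401 of all genes, and DESeq2 called 0 of the 95 and 61 of all genes. A call in 1 sex is thus not shown to be absent from the other.

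**Figure D2:**
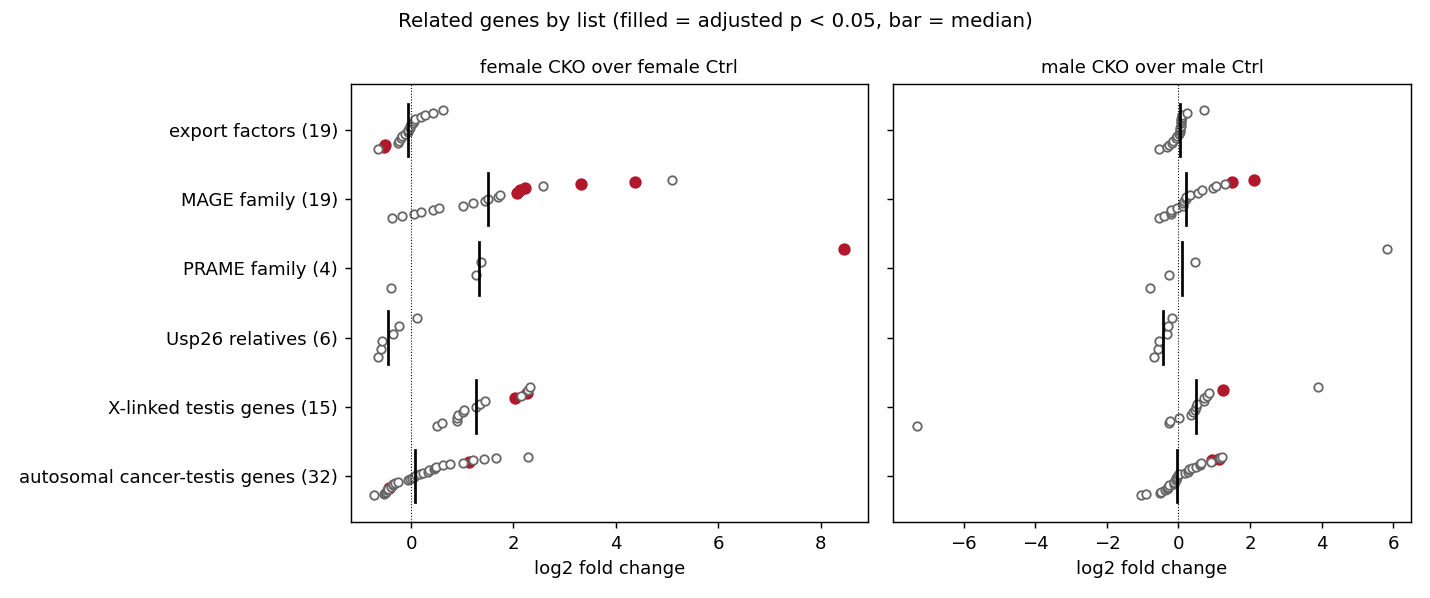
Log2 fold change of each related gene by list, CKO over Ctrl, with females in the left panel and males in the right panel (number of tested genes in parentheses, filled points at an edgeR adjusted p under 0.05, bars at the list median). MAGE genes and X-linked testis genes lie mostly to the right of 0 in females, with medians of 1.51 and 1.27, and export factors lie around 0, with a median of -0.05.

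The genes beside the 6 were described next, taking 5 tested genes on each side in chromosome order. These gave 53 genes that are not among the 6, and 46 of them pass the filter on the Ctrl libraries alone. In female CKO cells 15 of the 53 were called higher and 0 lower than in female Ctrl cells, against 3.01% and 4.16% of all tested genes. The median log2 fold change of the 53 was 0.86. The lower count was 3 at an unadjusted p under 0.05 and 1 in DESeq2. The remaining 612 tested genes of the X chromosome held 51 higher and 19 lower, with a median of 0.10. In male CKO cells 6 of the 53 passed as higher and 0 as lower, against 1.2% and 0.497% of all tested genes. The male median of the 53 was 0.33, while the 612 held 21 higher and 2 lower. Gm15023, Mageb10-ps and AV320801, called in both sexes, are close copies of Pramel3 or Mageb4 and may hold their reads. In males 3 were lower at an unadjusted p under 0.05 and 1 in DESeq2. The female count was 6 without female CKO 1 and 9 without female CKO 2 or without female Ctrl 2, and the male count was 1 without male CKO 2 or 3 and 3 without male Ctrl 3 or 4. Counted over genes that pass the filter on Ctrl libraries, 10 were called in females and 4 in males. Over these genes the median log2 fold change was 0.58 in females and 0.18 in males.

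Nxf2 and Pramel3 lie in the same stretch of the chromosome, in the order Nxf2, Zmat1, Gm6207, Gm15023, Pramel3, Gm15017, AV320801 and Prame among tested genes. In females all 6 that are not Nxf2 or Pramel3 were called higher, but Gm6207, Gm15023, Gm15017 and Prame do not pass the filter on the Ctrl libraries alone, so that they entered the test through the CKO libraries and their calls are no support. Zmat1, a zinc finger gene, averaged 39.7 ± 8.1 CPM in female CKO and 15.1 ± 4.13 CPM in female Ctrl cells (SD, n = 2 and 3; log2 fold change 1.4, edgeR adjusted p = 0.0346). Gm15023 and AV320801, the copies of Pramel3, had log2 fold changes of 4.66 and 3.02 in females and 2.64 and 1.92 in males and were called in both sexes. Gm15017 averaged 2.34 ± 0.71 CPM in female CKO and 0.0411 ± 0.0469 CPM in female Ctrl cells (SD, n = 2 and 3; edgeR adjusted p = 0.00768). Gm6207 had 36 and 12 counts in female CKO, against 0 in each female Ctrl library, a mean at least 22.1-fold higher. Gm6207 has 4 close copies and Gm15017 has 2 in the transcript set, so their counts are uncertain as well. Gm15023, AV320801 and Gm15017 kept the female call in all 19 alternative fits, whereas Gm6207 lost it without female CKO 1 and Zmat1 without each of the 5 female libraries in turn, without male CKO 2 and with no filter on low counts. In males the calls of Gm15023 and AV320801 were lost without male CKO 2 or male CKO 3, that of Gm15023 also without male Ctrl 3, and both with only the groups compared and with the replicate number as a block. On the other side of Nxf2, Armcx4 was higher in females, at 0.552 ± 0.284 CPM in CKO and 0.0343 ± 0.0594 CPM in Ctrl cells (edgeR adjusted p = 0.0222), and lost the call without female CKO 2 or female Ctrl 1 or 2.

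On 1 side of Mageb4 lie the 5 tested pseudogenes Mageb10-ps, Mageb8-ps, Gm41, Mageb6-ps and Mageb7-ps, and 4 of the 5 were called higher in females and 3 in males. Mageb7-ps, called in both sexes, does not pass the filter on the Ctrl libraries alone, so its calls are no support. Mageb10-ps, also called in both, is the close copy of Mageb4 and may hold reads of that gene. The fits in which Mageb6-ps and Mageb7-ps lost their calls are given above. Gm41 averaged 37.7 ± 6.19 CPM in female CKO and 14.3 ± 1 CPM in female Ctrl cells (SD, n = 2 and 3; log2 fold change 1.4, edgeR adjusted p = 0.00283). In males Gm41 averaged 18.3 ± 2.63 CPM in CKO and 10.2 ± 1.75 CPM in Ctrl cells (SD, n = 3 and 4; log2 fold change 0.84, edgeR adjusted p = 0.026), a call that failed without CKO male 2 or 3, without Ctrl male 3 or 4, with only the groups compared and with the block. The genes on the other side of Mageb4, from Nr0b1 to Dmd, were not called in CKO cells of either sex.

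Beside Nxf3, the 2 adjacent genes Bex2 and Bex4, of a family of small proteins, were called higher in females. Bex2 averaged 25.3 ± 9.64 CPM in female CKO and 11.2 ± 2.8 CPM in female Ctrl cells (SD, n = 2 and 3; log2 fold change 1.18, edgeR adjusted p = 0.0151). Bex4 averaged 79.7 ± 10.2 CPM in female CKO and 45 ± 3.09 CPM in female Ctrl cells (SD, n = 2 and 3; log2 fold change 0.82, edgeR adjusted p = 0.0101). Both lost the call without female CKO 1, and Bex2 also without female Ctrl 3. Beside Usp26, 1700080O16Rik (log2 fold change 1.62, edgeR adjusted p = 0.022) and Gpc4, a cell surface proteoglycan gene (1.25, adjusted p = 0.0441), were higher in female CKO, and Mbnl3, a splicing regulator gene, was higher in male CKO cells (1.24, adjusted p = 0.033). The calls of 1700080O16Rik and Gpc4 were lost without either female CKO library and without female Ctrl 1 or 2, that of Gpc4 also without female Ctrl 3, each male CKO library in turn, male Ctrl 3 or male Ctrl 4 and with the block, and that of Mbnl3 without CKO male 2 or 3, without Ctrl male 1 or 4, with only the groups compared and with the block. Around Tro 0 of 10 genes were called in either sex in edgeR. At an unadjusted p under 0.05, 2 of these 10 were lower and 0 higher in each sex, and DESeq2 called 1 lower in females and 0 in males.

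**Figure D3:**
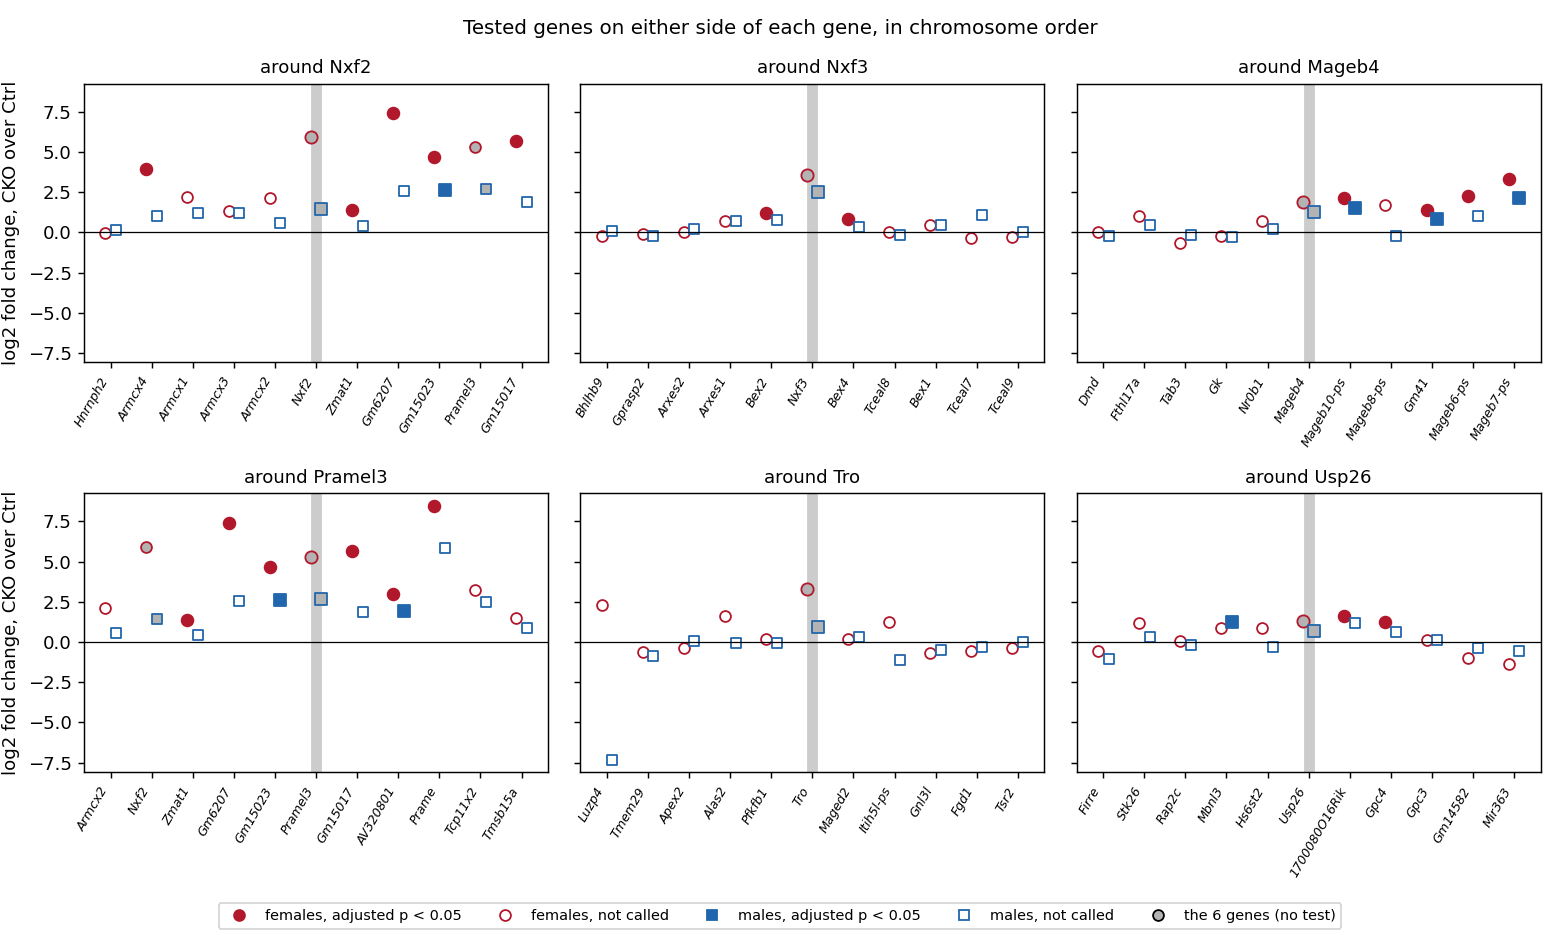
Log2 fold change, CKO over Ctrl, of the 5 tested genes on each side of each of the 6 genes in chromosome order, with circles for females and squares for males, filled at an edgeR adjusted p under 0.05 and grey for the 6 genes themselves. Filled points cluster around Nxf2, Pramel3 and on 1 side of Mageb4, and no point around Tro is filled.

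Levels of the 6 genes went up and down together over the 12 libraries. Pearson correlations of log2 CPM between pairs ran from 0.69 for Nxf2 with Usp26 to 0.93 for Nxf2 with Tro. These 12 points include the CKO groups in which the genes were chosen to be high, so the values describe the choice. The genes of ordinary name with the most similar profile were Cox8c (r = 0.952), Magea6 (0.935), Usp44 (0.935), Ddx43 (0.932), Mageb7-ps (0.92), Gsto2 (0.919), Rhox10 (0.918) and Cdc20b (0.918), each against the mean standardised profile of the 6 over the 12 libraries. Cox8c, Usp44, Ddx43, Gsto2 and Cdc20b lie on chromosomes 12, 10, 9, 19 and 13, and the other 3 lie on the X chromosome.

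Cox8c, a cytochrome c oxidase subunit gene of the testis, stood at 7.35 and 6.02 CPM in female CKO, against 1.26, 0.969 and 1.2 CPM in female Ctrl libraries. In males it stood at 2.88, 3.19 and 3.54 CPM in CKO, against 1.11, 1.44, 1.52 and 1.63 CPM in Ctrl libraries. It did not overlap between CKO and Ctrl in either sex. Gsto2, a glutathione transferase gene, averaged 17.4 ± 2.33 CPM in female CKO and 5.23 ± 0.85 CPM in female Ctrl cells, and 12.6 ± 2.01 CPM in male CKO and 4.74 ± 1.19 CPM in male Ctrl cells. Rhox10, a homeobox gene of the male germ line, averaged 6.14 ± 0.594 CPM in female CKO and 1.1 ± 0.288 CPM in female Ctrl cells, and 5.84 ± 1.46 CPM in male CKO and 1.97 ± 0.566 CPM in male Ctrl cells. Usp44, a deubiquitinase gene of the mitotic checkpoint, averaged 10.2 ± 1.48 CPM in female CKO and 4.45 ± 0.434 CPM in female Ctrl cells, and 8.92 ± 0.488 CPM in male CKO and 4.69 ± 1.05 CPM in male Ctrl cells. Cdc20b, a relative of a cell cycle gene, was near 0 in Ctrl cells, with 2 counts in all in female Ctrl and 0 in male Ctrl libraries, against 26 and 18 counts in female CKO and 4, 4 and 6 counts in male CKO libraries. These genes were selected for likeness to the 6, so their differences between CKO and Ctrl are no separate evidence.

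**Figure D4:**
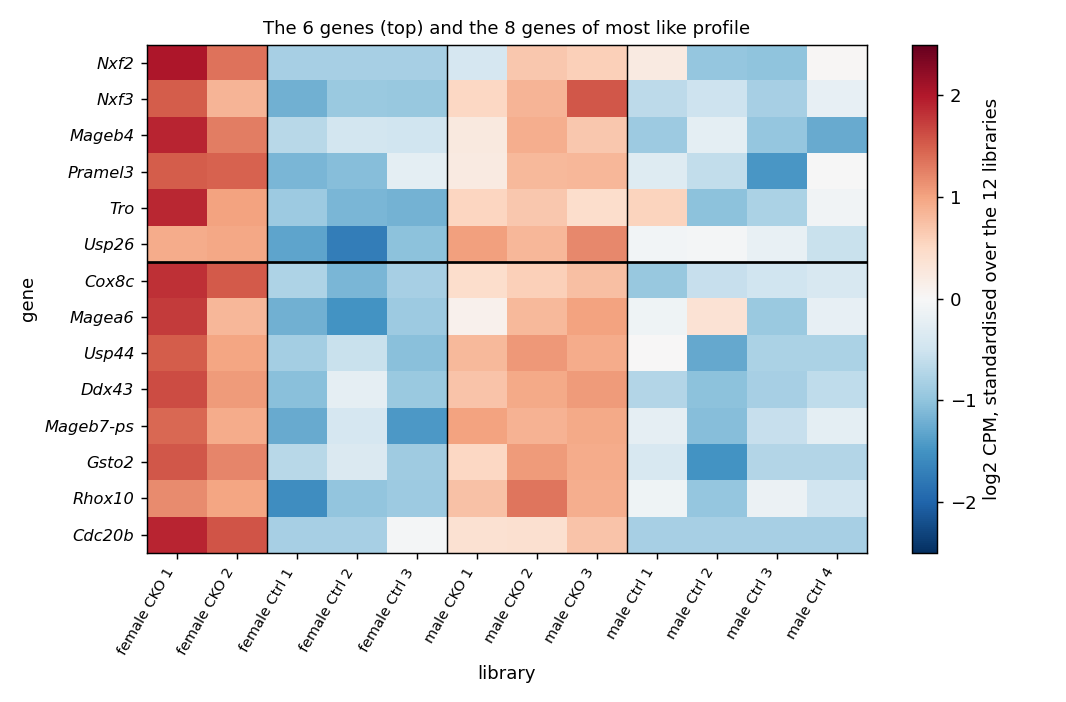
Log2 CPM of the 6 genes (above the line) and of the 8 genes of most like profile (below it), each standardised over the 12 libraries, with the CKO libraries left of the Ctrl libraries in each sex and females on the left. Female CKO libraries are highest for most genes, male CKO libraries come next and Ctrl libraries are mostly low, with male Ctrl 1 raised for Nxf2 and Tro.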

How the data were processed

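RNA of sorted PGCs was sequenced, 1 embryo per library. Per the labels' protocols, 1 ng of total RNA was amplified with SMART-seq V4, which does not mark the strand, so overlapping genes on opposite strands cannot be told apart. The authors deposited raw read counts per gene for all 12 libraries. Tools named, per the submitters' processing notes, are featureCounts, TopHat2 2.0.11, Trimmomatic 0.33 and CASAVA 1.8.4, and builds mm9 and NCBIM37. The labels name no litters, and p-values measure the spread between these embryos.

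Of 37991 identifiers, 32938 matched a symbol (99.5% of the counts). Names, gene order and lengths are from GENCODE M21 on GRCm38, so no coordinates of the counted genes are given, and the gene start windows are RefSeq's on GRCm38.p6. The genes were filtered with filterByExpr (minimum count 10, total 15, leaving 16708), scaled by TMM and fitted in edgeR 4.0.16 (R 4.3.3, limma 3.58.1) by quasi-likelihood with 1 coefficient per group, with Benjamini-Hochberg adjustment over all tested genes and a call at an adjusted p under 0.05. SE values derive from the F statistic. CPM use TMM-scaled libraries, in which 1 CPM is 24.2 to 34.2 counts, and RPKM divide CPM by exon length. Floors of 3 counts cover counting error only. No 2 libraries of a group were alike within sampling noise (chi-square per gene of 18.6 or more). The fit was tested on simulated data.

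The 6 genes, the lists and the rule for naming genes were chosen with earlier results of these data known. The rule named the 6 genes, Ezh2, Nxf1, Nxf7, Maged1, Usp29 and Prame, up to 4 called genes per list and CKO comparison, called neighbours and the 8 genes of most like profile. Near-identical copies were named after their values were seen. Alternatives were size factors by median of ratios, library size only, no filter, 5 CPM in 2 libraries, only the groups compared, DESeq2 1.42.0, the replicate number as a block and each library left out.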

Additional observations from a re-analysis of the deposited data

How the results depend on the processing

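The directions given above held for each of the 6 genes in all 19 alternative fits of each comparison. Log2 fold changes in females ran from 4.98 to 6.51 for Nxf2, 2.94 to 3.97 for Nxf3 and 4.92 to 6.55 for Pramel3 when single libraries were left out. With single libraries left out, related genes called ran from 3 to 21 in females (12 in the reported fit) and from 2 to 8 in males (5), neighbours from 6 to 20 in females (15) and from 1 to 8 in males (6), and the 6 genes called between female and male Ctrl from 1 to 2 (2). DESeq2 called 22 related genes in females, 11 related genes in males and 11 neighbours in males. With only the groups compared there were 26 related genes in females, 1 neighbour in males and 1 of the 6 between the sexes. Library size alone and no filter on low counts each left 1 of the 6 between the sexes. With the replicate number as a block there were 3 related genes and 1 neighbour in males and 1 of the 6 between the sexes, and 8 related genes and 13 neighbours in females. Libraries with the same number in their titles deviated together by correlations from -0.0953 to 0.152. The numbers in the column names differ from the titles in females, and libraries that share those deviated by -0.152 to 0.099. No clear pairing of the embryos was seen by either numbering. The deviations of the 2 female CKO libraries mirror each other and the labels name no litters, so a pairing is not excluded. Leaving the close copies out, a choice made after seeing the data, left 3 neighbours called in males. The causes of these shifts were not tested. The difference between the female and male effects gave 0 calls among related genes throughout. With 2 female CKO embryos, low genes such as Prame and Armcx4 rest on few counts, and the depth does not resolve Nxf7.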
